A study of Iris tectorum with 6 samples.

Results

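Small heat shock proteins and the heat stress transcription factors that switch their genes on were followed in leaves of Iris tectorum, a rhizomatous garden iris, grown without or with a green microalga. Members were the unigenes (assembled transcripts) whose best protein hit was described as a small heat shock protein, a "kDa class" or "kDa heat shock" protein, an alpha-crystallin, a heat stress transcription factor or a heat shock factor. Names that also held 70, 90 or 60 kDa were dropped, which took out 14 of 95 matches. The 81 members, of 111791 unigenes with reads, comprised 36 small heat shock proteins, 42 heat stress factors and 3 contigs of a factor-binding protein. The words of the rule used no measured value.

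Both groups stood in swine wastewater in a glasshouse, flooded to a mean height of 12.3 cm (± 0.8). The plant alone group had no added alga, and the co-culture group shared its water with Dictyosphaerium sp., a green alga that grows in colonies. Each group has 3 samples in the labels. The libraries compared were plant alone replicates 2 and 3 and co-culture replicates 1, 2 and 3, with plant alone replicate 1 not analysed here. The labels do not state that replicates were grown apart, and every p-value therefore reflects only how far these samples spread, which may be technical. The labels give no heat treatment for either group.

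Small heat shock proteins are chaperones that need no ATP. They bind proteins that are losing their fold and hold them until HSP70, HSP90 and the disaggregase ClpB/HSP101 can refold them. Plants have an unusually large family, sorted by sequence into classes that work in the cytosol and nucleus, the endoplasmic reticulum, chloroplasts, mitochondria and peroxisomes, and most members are scarce in unstressed leaves. Heat stress factors bind short repeated elements in the promoters of these genes. In Arabidopsis and tomato, class A factors carry an activation domain, most class B factors lack it and several repress, and small binding proteins take active factor trimers apart.

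The libraries held 18616931 to 22975621 expected counts. Rank correlations between libraries, across unigenes, ran from 0.647 to 0.834, and edgeR estimated a biological coefficient of variation of 0.773. The leaf label was checked on marker genes. Summed FPKM (fragment counts relative to a transcript's length and to the library's size) of 56 chlorophyll a-b binding protein unigenes was 7164 and 4457 in plant alone 2 and 3 and 17690, 21450 and 3303 in co-culture 1, 2 and 3. The 3 root marker sets reached at most 9.91 FPKM in sum in any library, and each was highest in co-culture 3. The leaf markers thus varied widely within the co-culture group, highest in co-culture 2 and lowest in co-culture 3, and their part in the results below was not tested. Fewer cells of a type and less RNA per cell cannot be told apart in such bulk libraries. Unigenes whose protein hit was to a green alga took 0.28 and 0.34% of counts in plant alone 2 and 3. In co-culture 1, 2 and 3 they took 0.21, 0.20 and 0.23%, less than in either control. None of the 81 members had an algal hit: 75 matched a monocot and 6 another plant.

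The small heat shock proteins stood higher in co-culture as a set, and the factors much less so. All 36 small chaperones were annotated to the KEGG HSP20 family and all 42 factors to the KEGG heat shock transcription factors, which the rule had not used. Summed over the 36 small chaperones, the level was 4629 and 4957 FPKM in plant alone 2 and 3 and 10700, 17020 and 8237 FPKM in co-culture 1, 2 and 3. Each co-culture library lay above both plant alone libraries, with co-culture 2 the highest. The group means were 4793 ± 231.9 (SD, n = 2) and 11990 ± 4530 FPKM (SD, n = 3), a ratio of 2.50, which was 1.98 without co-culture 2. Summed factor levels were 218.2 and 214.7 FPKM against 242.9, 308.2 and 283.2 FPKM. These groups did not overlap in FPKM either, but the means, 216.4 ± 2.48 and 278.1 ± 33.0 FPKM, differed by a ratio of only 1.29. FPKM sums carry no TMM scaling between libraries, whose factor was highest, 1.183, in co-culture 3. On TMM-scaled counts, co-culture 3 exceeded both controls for 14 of 38 factors tested (36.8%, against 34.4% of all unigenes). The chaperone sum was 21.2 and 23.1 times the factor sum in the plant alone libraries and 44.1, 55.2 and 29.1 times in co-culture 1, 2 and 3.

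**Figure D1:**
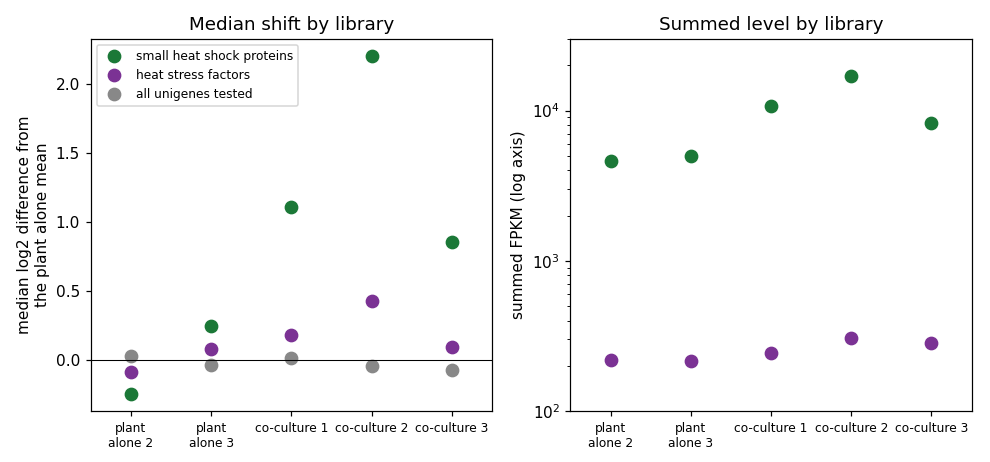
Left, the median over unigenes of the log2 difference from the plant alone mean, on the log2(CPM + 0.5) scale, for 32 small heat shock proteins, 38 heat stress factors and 69984 unigenes tested, in each library. Right, summed FPKM per library on a log axis. The small chaperones reach 1.11, 2.21 and 0.86 in co-culture 1, 2 and 3, against 0.18, 0.43 and 0.10 for the factors, while all unigenes stay near 0.

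Of the members, 72 passed the filter on low counts, made up of 32 small chaperones, 38 factors and 2 binding protein contigs. In the edgeR fit, the log2 fold change (co-culture over plant alone) was above 0 for 28 of 32 small chaperones, against 50.1% of all 69984 unigenes tested, of which 49.9% were below. Their median was 1.61 (quartiles 0.81 and 2.21), and 1.06 without co-culture 2. For the factors it was above 0 in 25 of 38 (27 with another library scaling, RLE), with a median of 0.39 (quartiles -0.06 and 0.73). That median ranged from 0.16 without plant alone 2 and 0.21 without co-culture 2 to 0.60 without co-culture 1. The median of all unigenes tested was 0.00. Replicates also spread more for the chaperones: the median SD of log2 levels was 0.44 in plant alone and 1.05 in co-culture, against 0.30 and 0.54 for factors and 0.34 and 0.51 for all unigenes. Co-culture 2 was the highest of the 5 libraries for 22 of 32 small chaperones and 20 of 38 factors, a place it took in 23.8% of all unigenes.

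No single member passed the edgeR test after adjustment over all unigenes. edgeR called 0 of 72 members and 0% of unigenes tested at adjusted p 0.05, with a smallest adjusted p of 0.628 that many members share. At an unadjusted p under 0.05, 9 small chaperones were higher and 0 lower, where 2.75% of all unigenes were higher and 4.45% lower. The 9 became 1 without plant alone 3, 4 without plant alone 2 and 16 without co-culture 3. Among the factors, 1 was higher and 0 lower, and that 1, an A-3 factor, was lost without co-culture 2. The share over all unigenes at this unadjusted threshold was not taken for the edgeR fits without a library. DESeq2, run on the same counts, called 2 members, both small chaperones higher in co-culture, where it called 0.899% of unigenes higher and 0.977% lower. Without plant alone 2 it called 7 members, all higher, where 2.65% of unigenes were called higher, and without plant alone 3 it called 5 (2.73%). Omitting co-culture 1, 2 or 3 gave 4, 8 or 11 calls, all higher, where 2.36%, 1.41% and 1.26% of unigenes were called higher. Each of these 5 sets held both unigenes. The sets without a co-culture library held small chaperones only, but those without a plant alone library did not. Both of the latter held the binding protein contig CL10840.Contig3, which was at 0 FPKM in every library except co-culture 2. They also held a factor contig each, CL4944.Contig2 (B-2c-like) without plant alone 2 and CL6546.Contig3 (A-3) without plant alone 3. On TMM-scaled CPM (counts relative to the scaled library total), the lowest co-culture value exceeded the highest plant alone value for 17 of 32 small chaperones and 7 of 38 factors, against 12.8% of all unigenes, and the reverse held for 1 and 2, against 17.2%.

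**Figure D2:**
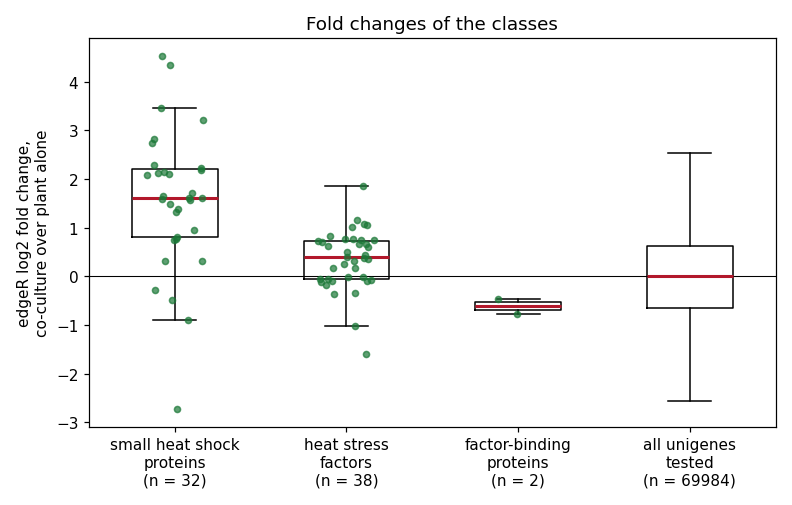
edgeR log2 fold changes of co-culture over plant alone for each tested small heat shock protein, factor and binding protein contig (points), with boxes for the quartiles, a red line for the median and whiskers to the last value within the standard reach of the box. Medians are 1.61 for 32 small chaperones, 0.39 for 38 factors and 0.00 for 69984 unigenes, whose points are not drawn.

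Chloroplast small heat shock proteins, nuclear-encoded proteins that guard chloroplast proteins during heat, stood higher in co-culture throughout. All 6 tested unigenes had every co-culture library above both plant alone libraries, against 12.8% of all unigenes tested. Their log2 fold changes were 1.32 to 4.35, with a median of 2.21. The most abundant, Unigene14896 (identifiers are given without the suffix _zju that all carry), stood at 355.1 and 124.0 FPKM in plant alone and 669.9, 638.8 and 461.4 FPKM in co-culture. Its log2 fold change was 1.32 ± 0.58 (SE), and 2.18 without plant alone 2 or 0.80 without plant alone 3. Unigene14897 stood at 28.7 and 31.8 FPKM against 70.9, 265.3 and 94.5 FPKM, a log2 fold change of 2.28 ± 0.79 that was 1.34 without co-culture 2. The controls were close to each other here, and co-culture 2 stood well above the other co-culture libraries.

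A further 3 chloroplast unigenes followed that order, with co-culture 2 far above the rest. Unigene7694 had 40.5 and 53.5 FPKM against 98.6, 424.2 and 100.4 FPKM. CL14448.Contig2 had 23.2 and 32.4 FPKM against 48.1, 253.8 and 79.0 FPKM, and Unigene59912 had 14.6 and 11.9 FPKM against 23.7, 120.7 and 21.7 FPKM. Their log2 fold changes were 2.20 ± 0.94, 2.23 ± 0.93 and 2.14 ± 1.03, and 0.97, 1.07 and 0.68 without co-culture 2. The scarcest, Unigene30866, was 1 of the 2 DESeq2 calls. It stood at 1.73 and 0.87 FPKM in plant alone and 12.1, 50.5 and 13.3 FPKM in co-culture, so that even the lowest co-culture library was well clear of both controls. Its edgeR log2 fold change was 4.35 ± 1.05 (edgeR adjusted p = 0.628, DESeq2 adjusted p = 0.00205), and 3.21 without co-culture 2.

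Class I proteins, the main cytosolic small chaperones, made up most of the summed level. Of 11 unigenes, 10 had a log2 fold change above 0, with a median of 1.49. On TMM-scaled CPM, 4 of the 11 had every co-culture library above both controls, against 12.8% of all unigenes tested. CL11024.Contig1, an 18.1 kDa class I protein, stood at 1867 and 1691 FPKM in plant alone and 3446, 4414 and 2372 FPKM in co-culture. Unigene7429, a short contig of 322 bases also named as 18.1 kDa, stood at 1285 and 1642 FPKM against 3463, 5646 and 3230 FPKM. Both had groups that did not overlap, with log2 fold changes of 0.95 ± 0.61 and 1.49 ± 0.55. By mean FPKM they ranked 12 and 9 among all unigenes, and together they held 59.1 to 68.1% of the small chaperone sum in each library. Contigs of closely similar genes can share reads, and how alike these 2 are in sequence was not examined. Without these 2 unigenes, the other 34 summed to 1478 and 1624 FPKM in plant alone and 3795, 6958 and 2635 FPKM in co-culture, so the difference in the sum did not rest on them alone.

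Co-culture 3 parted from the other co-culture libraries within class I. Its median difference from the plant alone mean was -0.21, against 1.16 in co-culture 1 and 2.10 in co-culture 2. Unigene50579, a 16.9 kDa protein, stood at 51.5 and 30.7 FPKM in plant alone and 107.2, 358.8 and 15.0 FPKM in co-culture. Its last library was the lowest of the 5, and its log2 fold change was 2.08 ± 1.37, and 0.54 without co-culture 2. CL11024.Contig2, a 234-base contig, had 148.0 and 368.0 FPKM against 772.3, 1162 and 12.5 FPKM. Unigene43105 (20.04 and 12.9 FPKM against 55.0, 257.0 and 12.7 FPKM) and Unigene551 (15.8 and 24.2 FPKM, against 142.5 and 9.59 FPKM in co-culture 2 and 3) likewise had their lowest value in co-culture 3. CL8443.Contig1 was high in co-culture 1 alone, at 364.5 FPKM, with 74.2 and 20.1 FPKM in plant alone and 34.9 and 9.65 FPKM in co-culture 2 and 3. Unigene6956 and Unigene6392 were instead above both controls in co-culture 3, at 145.2 and 89.6 FPKM. The exception in direction was Unigene6287, at 40.5 and 102.0 FPKM against 87.1, 13.3 and 65.9 FPKM, with overlapping groups and a log2 fold change of -0.48 ± 0.82 that was 0.45 without plant alone 3.

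Class II and class III are further cytosolic and nuclear groups. CL1980.Contig2, a 17.9 kDa class II protein, stood at 49.4 and 50.1 FPKM in plant alone and 106.2, 379.2 and 145.1 FPKM in co-culture. Its log2 fold change was 2.11 ± 0.76, and 1.23 without co-culture 2. Unigene8900, of the same name, stood at 58.3 and 96.9 FPKM against 145.0, 534.7 and 355.2 FPKM, a log2 fold change of 2.13 ± 0.72, or 1.54 without co-culture 2. Neither of them had overlapping groups, and both were highest in co-culture 2, next in co-culture 3 and lowest, among the co-culture libraries, in co-culture 1. The third, Unigene41873, did not pass the count filter. The single class III unigene, Unigene40601, had 9.18 and 11.3 FPKM against 26.1, 263.7 and 28.2 FPKM, a ratio of means of 10.4 that was 2.65 without co-culture 2.

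Class IV proteins carry the name of the endoplasmic reticulum group. The 4 tested unigenes all had a log2 fold change above 0, and the class sum went from 308.2 ± 10.4 FPKM (SD, n = 2) to 1013 ± 463.2 FPKM (SD, n = 3). Unigene21639, a 22.7 kDa protein that provides most of it, stood at 290.9 and 306.5 FPKM in plant alone and 714.1, 1348 and 645.6 FPKM in co-culture. Its groups lay far apart, with a log2 fold change of 1.61 ± 0.58. The second DESeq2 call was Unigene19093, a 22.0 kDa protein, at 5.80 and 1.98 FPKM against 14.6, 173.7 and 72.8 FPKM. Its co-culture libraries differed widely among themselves and still all exceeded both controls. The edgeR log2 fold change was 4.54 ± 1.34 (edgeR adjusted p = 0.628, DESeq2 adjusted p = 0.00918), 3.39 without co-culture 2 and 5.42 without plant alone 2.

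In class V and class VI the groups were not separated in this way. The class V unigene Unigene4371 stood at 7.55 and 6.33 FPKM in plant alone and 6.58, 13.1 and 6.05 FPKM in co-culture, with overlapping groups. Class VI was the only class with none of its tested unigenes above 0. Its main contig, CL5213.Contig2, a 22.3 kDa protein, had 11.03 and 27.96 FPKM against 7.83, 6.31 and 20.3 FPKM, a log2 fold change of -0.90 ± 0.64 (0.036 without plant alone 3) with overlapping groups. CL5213.Contig3 was scarce, at 0.75 and 1.74 FPKM against 0, 0.25 and 0.33 FPKM, and its groups did not overlap. Unigene21640, a 23.2 kDa protein of no stated class, stood at 1.25 and 1.91 FPKM against 4.68, 7.21 and 2.34 FPKM. All 3 co-culture libraries were above the controls in FPKM, and its log2 fold change was 1.60 ± 0.75. On TMM-scaled CPM its groups overlapped, with 2.392 in co-culture 3 against 2.408 in plant alone 3.

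The peroxisomal proteins were 4 contigs of 1 cluster, CL10431. Summed over contigs, the cluster stood at 94.8 and 131.0 FPKM in plant alone and 154.8, 165.7 and 114.0 FPKM in co-culture, with overlapping groups. Within it, CL10431.Contig1, the main contig, had 68.6 and 106.9 FPKM against 93.5, 92.3 and 27.7 FPKM. CL10431.Contig3 had 19.4 and 11.99 FPKM against 31.9, 60.5 and 52.3 FPKM, and CL10431.Contig4 had 0.34 and 2.65 FPKM against 11.2, 7.43 and 13.8 FPKM. These 2 minor contigs did not overlap between groups, with co-culture above, as was so for 12.8% of all unigenes tested. CL10431.Contig2, at 6.45 and 9.47 FPKM against 18.2, 5.43 and 20.2 FPKM, did overlap, as did the sum. The log2 fold changes of the 3 minor contigs were 1.61 ± 0.45 (Contig3), 2.74 ± 0.99 (Contig4) and 0.77 ± 0.61 (Contig2), against 0.37 for the cluster sum. Omitting plant alone 2 gave 1.88 for Contig4, and omitting plant alone 3 gave 5.06.

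**Figure D3:**
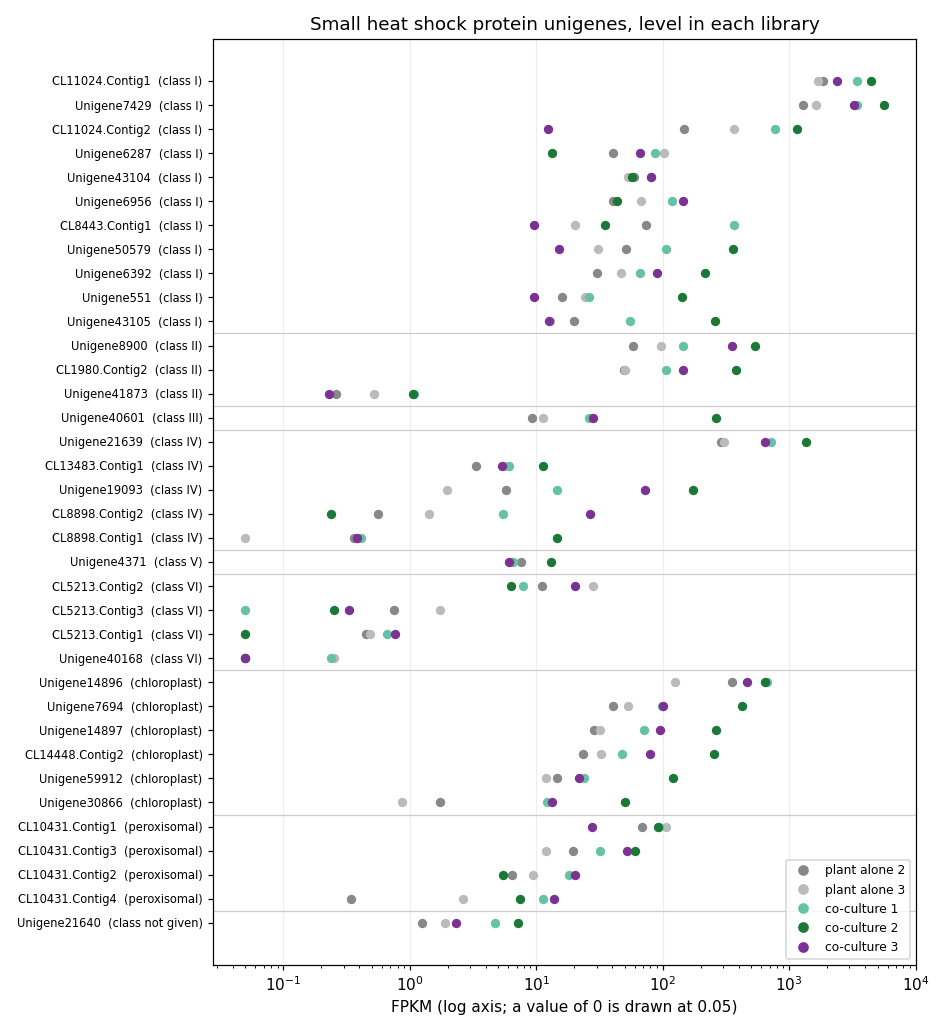
FPKM of each of the 36 small heat shock protein unigenes (rows, grouped by class) in the 5 libraries, on a log axis with values of 0 drawn at 0.05. Points at the same level hide one another. Grey points are plant alone and coloured points co-culture; in the chloroplast rows all coloured points lie to the right of the grey ones, whereas in class I the purple points of co-culture 3 are often among or below the grey ones.

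Among the factors, A-3 was the type whose groups stood furthest apart for their spread in summed FPKM. In Arabidopsis, HsfA3 is switched on by DREB2A and acts in a later part of the heat response. Its 5 unigenes summed to 10.2 and 9.33 FPKM in plant alone and 18.6, 20.8 and 19.1 FPKM in co-culture. The group means were 9.76 ± 0.61 (SD, n = 2) and 19.5 ± 1.13 FPKM (SD, n = 3), a ratio of 2.00, and unlike the small chaperones the 3 co-culture libraries were level with one another. Unigene52206, a partial A-3 contig of 395 bases, contributed much of the difference, at 2.61 and 2.12 FPKM against 6.65, 11.9 and 7.66 FPKM. Its log2 fold change was 1.87 ± 0.63. The other 4 A-3 contigs form cluster CL6546, which summed to 7.58 and 7.21 FPKM against 11.99, 8.87 and 11.4 FPKM. Its summed counts gave a log2 fold change of 0.53, and the median over the 5 A-3 unigenes was 0.74. FPKM gives a short contig more weight than its counts do. As a share of counts, the 5 unigenes took 0.00143% in both plant alone libraries and 0.00242, 0.00214 and 0.00233% in co-culture.

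The A-1 and A-2 factors behaved differently from one another in co-culture 2. HsfA1 factors are the master switches of the response in Arabidopsis and tomato, present before heat, and HsfA2 is strongly induced by them and prolongs it. Unigene26190, an A-1 factor, stood at 6.79 and 8.43 FPKM in plant alone and 10.03, 3.31 and 9.97 FPKM in co-culture. It was lowest of all in the library where most small chaperones were highest. The 10 A-2 unigenes summed to 35.4 and 31.4 FPKM against 32.2, 71.2 and 37.9 FPKM, with co-culture 2 far above the others. In FPKM, co-culture 3 was just above both controls and co-culture 1 between them. The small margin of co-culture 3 carries no TMM scaling between libraries, whose factor was highest there, 1.183. As a share of counts, co-culture 1 (0.00757%) was below both controls (0.00944 and 0.00806%). Unigene8871, an A-2b-like factor, stood out in co-culture 2 alone, at 7.58 and 7.70 FPKM against 7.14, 23.6 and 6.93 FPKM, and its log2 fold change of 0.76 turned to -0.22 without that library. The A-2b-like contig CL2698.Contig3 had 17.4 and 13.0 FPKM against 11.2, 27.0 and 18.2 FPKM.

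A-4 and A-5 factors were close to level. In rice and Arabidopsis, A-4 factors are activators linked to oxidative stress and A-5 binds and inhibits them. The 9 A-4 unigenes summed to 21.9 and 26.6 FPKM in plant alone and 25.8, 25.7 and 29.7 FPKM in co-culture. The 4 A-5 unigenes summed to 35.4 and 39.6 FPKM against 37.5, 35.7 and 41.98 FPKM. Both types overlapped between groups, with ratios of means of 1.12 and 1.02. Of their most abundant unigenes, Unigene8623 and CL15511.Contig2 (A-5) and CL15887.Contig6 (A-4b-like) had log2 fold changes of -0.02 ± 0.26, -0.08 ± 0.34 and -0.01 ± 0.36. The sign of the first and last of these turned with RLE scaling.

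B-2 factors gave the highest level of any factor type. In Arabidopsis, HsfB1 and HsfB2b repress heat genes once the response is under way. CL4944.Contig1, a B-2b-like factor, stood at 38.8 and 37.1 FPKM in plant alone and 38.7, 46.3 and 46.95 FPKM in co-culture, and its log2 fold change was 0.18 ± 0.28. CL4944.Contig3, a B-2c-like contig of the same cluster, stood at 19.2 and 19.8 FPKM against 24.2, 45.5 and 26.4 FPKM, a log2 fold change of 0.72 ± 0.46 that was 0.27 without co-culture 2. The first overlapped between groups and the second did not, and the 3 B-2 unigenes together had a ratio of means of 1.34. The B-1 contigs summed to 17.6 and 8.97 FPKM against 10.7, 6.90 and 16.3 FPKM, with wide overlap and a ratio of means of 0.849, or 1.01 without co-culture 2. CL1403.Contig2, the main B-1 contig, had 9.43 and 6.40 FPKM against 7.55, 6.54 and 14.2 FPKM. The B-4 unigene did not pass the count filter.

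Class C factors, a plant group whose role is less settled, were scarce and level. Their 5 unigenes summed to 5.94 and 7.63 FPKM in plant alone and 7.11, 6.27 and 7.30 FPKM in co-culture. CL12439.Contig2, a C-1b-like factor, had 3.42 and 3.10 FPKM against 2.91, 1.75 and 3.24 FPKM, a log2 fold change of -0.37 ± 0.45. The 2 factors with every co-culture library below the controls on TMM-scaled CPM, this contig and CL14188.Contig1, were both of class C. Over all unigenes tested, 17.2% lay below in this way. The cluster sum of CL14188 overlapped between groups, with a log2 fold change of 0.19. A 411-base contig named heat shock factor protein 7, CL2698.Contig7, had 20.7 and 22.9 FPKM against 31.0, 42.2 and 39.3 FPKM. Its groups did not overlap, and its log2 fold change was 0.75 ± 0.36. It shares cluster CL2698 with the much longer A-2b-like contig CL2698.Contig3. The sum of that cluster overlapped between groups, with a log2 fold change of 0.49.

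**Figure D4:**
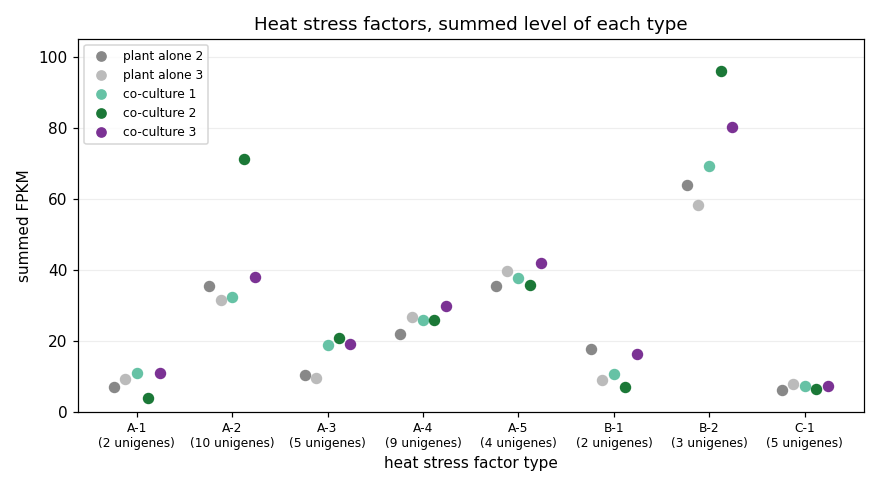
Summed FPKM of the heat stress factor unigenes of each type in the 5 libraries (grey, plant alone; coloured, co-culture). A-3 lies at 9.33 to 10.2 FPKM in plant alone and 18.6 to 20.8 FPKM in co-culture, A-2 is far above the other libraries in co-culture 2, and A-4, A-5 and C-1 overlap between groups.

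The factor-binding protein, which in Arabidopsis and animals takes factor trimers apart and damps the response, was not higher in co-culture. Its 3 contigs, cluster CL10840, summed to 89.0 ± 15.5 FPKM in plant alone (SD, n = 2) and 77.2, 62.1 and 82.6 FPKM in co-culture, and the groups overlapped. CL10840.Contig1 had 41.8 and 44.5 FPKM against 37.7, 23.7 and 36.8 FPKM, a log2 fold change of -0.46 ± 0.29, and its groups did not overlap. The other contigs traded places in co-culture 2. CL10840.Contig2 stood at 36.3 and 55.5 FPKM against 39.5, 3.29 and 45.8 FPKM, while CL10840.Contig3 was listed at 35.1 FPKM in co-culture 2 and at 0 in the other libraries.

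Such exchanges between contigs of a cluster occurred elsewhere, so counts were also summed per cluster, contigs that are not members included. In class IV cluster CL8898, CL8898.Contig1 stood at 14.6 FPKM in co-culture 2 and at most 0.41 FPKM elsewhere, and CL8898.Contig2 at 26.7 FPKM in co-culture 3 but 0.24 FPKM in co-culture 2. The cluster with its 3 contigs summed to 6.17 and 6.24 FPKM in plant alone and 19.8, 16.7 and 27.3 FPKM in co-culture, so the sum was even where single contigs were not. Likewise CL6546.Contig1 of factor A-3 had 0.06 FPKM in co-culture 2 and 2.45 to 5.69 FPKM in the others. After summing, 25 of 27 tested small chaperone entries had a log2 fold change above 0 (49.5% of all 44464 entries, with 50.5% below), with a median of 1.67, and 10 of 15 factor entries, with a median of 0.41. On these sums DESeq2 called 3 small chaperone entries and 0 factor entries higher, where it called 0.549% of all entries higher and 1.28% lower. The 3 were CL8898 (DESeq2 adjusted p = 0.000138), Unigene30866 (DESeq2 adjusted p = 0.000768) and Unigene19093 (DESeq2 adjusted p = 0.00402). At an unadjusted edgeR p under 0.05, 9 chaperone entries and 1 factor entry were higher and 0 of either were lower, against 3.06% and 6.34% of all entries.

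**Figure D5:**
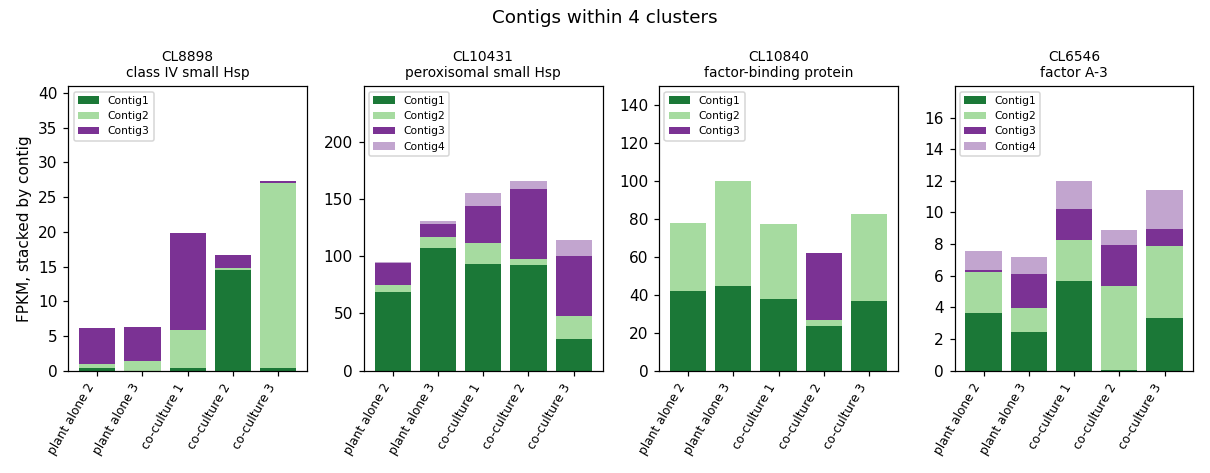
FPKM stacked by contig in 4 clusters for each library. In CL8898 the leading contig differs between co-culture 1, 2 and 3 while the column height stays above plant alone; in CL10840 the third contig appears in co-culture 2 alone; in CL6546 the first contig is nearly missing in co-culture 2.

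The authors' deposited table pooled each group and included plant alone reads not analysed here, 59625013 expected counts against 37498927 in the libraries used. In the authors' deposited table, 25 of 36 small chaperones were marked Up and 2 Down, where 16.3% of its 112092 unigenes were Up and 13.6% Down. The authors' deposited table marked 6 of 42 factors Up and 1 Down. The median log2 ratio in the authors' deposited table was 1.57 for the small chaperones and 0.43 for the factors, against 0.12 over all unigenes. In the authors' deposited table, the 2 Down chaperones were both of class VI, and the marked factors were 3 A-2, 2 A-3 and 1 A-4 unigenes (Up) and 1 B-1 unigene (Down). The authors' calls rest on pooled counts and take no account of the spread between libraries.

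Other genes of the heat response were read from the same fit with 12 word lists, 11 of which matched unigenes. Of 347 tested unigenes on them, 242 had a log2 fold change above 0, with a median of 0.45, between the factors and the small chaperones. Their median difference from the plant alone mean was 0.21, 0.66 and 0.14 in co-culture 1, 2 and 3. Summed FPKM of these lists was 8304 and 11300 in plant alone and 10790, 22580 and 12960 in co-culture, with overlapping groups. For ClpB/HSP101, the disaggregase that works with small chaperones, 13 of 13 were above 0, with a median of 1.45. Its most abundant unigene, Unigene27010, stood at 21.5 and 35.6 FPKM in plant alone and 63.7, 175.7 and 69.0 FPKM in co-culture. HSP90 had 38 of 44 above 0 (median 0.70), HSP60 and other chaperonins 17 of 22 (median 0.60), HSP70 54 of 76 (median 0.53) and the DnaJ co-chaperones 82 of 139 (median 0.16). Summed FPKM overlapped between groups for HSP90, HSP70 and DnaJ, but not for ClpB/HSP101 and the chaperonins. The leading unigenes of HSP90 and chaperonins, CL128.Contig4 and CL759.Contig3, had log2 fold changes of 0.85 ± 0.71 and 0.73 ± 0.39. Those of HSP70 and DnaJ, CL15855.Contig3 and CL6124.Contig3, had -0.41 ± 0.44 and 0.21 ± 0.57.

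Known targets and partners of the factors gave a mixed picture. Galactinol synthase, which starts raffinose synthesis and is a target of heat factors in Arabidopsis, had 12 of 13 unigenes above 0 with a median of 1.64. Its median difference from the plant alone mean was 1.49, 2.89 and -0.08 in co-culture 1, 2 and 3. Its main unigene, CL13190.Contig6, stood at 134.8 and 18.8 FPKM against 156.7, 970.4 and 115.2 FPKM, with overlapping groups. BAG family co-chaperones had 16 of 24 above 0 (median 0.45). Their leading unigene CL8692.Contig1, a BAG6-like protein, stood at 108.9 and 116.8 FPKM against 264.2, 1054 and 636.5 FPKM and was called by DESeq2 (DESeq2 adjusted p = 0.0497, edgeR adjusted p = 0.628). The other DESeq2 calls on these lists, all higher, were the ClpB1-like contigs Unigene27011 and Unigene9672, which were at 0 in both plant alone libraries and co-culture 1 and at 4.80 to 8.35 FPKM in co-culture 2 and 3. These 3 calls of 347 compare with 0.899% of all unigenes called higher.

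Multiprotein-bridging factor 1 had 3 of 6 above 0 (median -0.07), but its heat-linked form MBF1C, Unigene37092, stood at 81.0 and 152.7 FPKM against 177.1, 846.3 and 296.1 FPKM. Its groups did not overlap, and its log2 fold change was 1.94 ± 0.91. DREB2 factors, which act upstream of HsfA3 in Arabidopsis, had 4 of 6 above 0 (median 0.39), and their main unigene CL7934.Contig1 overlapped between groups. The immunophilins FKBP62/FKBP65 had 2 of 3 above 0 and HEAT-STRESS-ASSOCIATED 32 had 1 of 1, and their leading unigenes CL6980.Contig4 and CL1385.Contig2 had log2 fold changes of 0.12 ± 0.27 and 0.23 ± 0.38. By edgeR, no unigene of these lists passed at adjusted p 0.05, while at an unadjusted p under 0.05 13 were higher and 4 lower of 347. Over all unigenes these shares were 2.75% and 4.45%.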

How the data were processed

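Leaf RNA was read on a BGISEQ-500 machine. The submitters' processing notes name Bowtie2, RSEM and DESeq2 and give no versions. Per the file headers, each deposited library file holds expected counts and FPKM for the unigenes of an assembled transcriptome. A unigene not listed in a file counted as 0. Assembler and strand use in counting are not given in the sources used here. Per the file headers, the authors' deposited table holds pooled expected counts with a log2 ratio, p-value and q-value for each unigene. The table is labelled with DEGseq, not DESeq2, as its method. Its pooled co-culture column summed to 66856619 expected counts, against 66856674 in the libraries.

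Rounded expected counts of 2 plant alone and 3 co-culture libraries were fitted with edgeR 4.0.16 in R 4.3.3 (filterByExpr, TMM, quasi-likelihood F test, no replicate block). The Benjamini-Hochberg adjustment ran over all 69984 unigenes tested, with a threshold of 0.05. The SE is that of the log2 fold change implied by the F statistic. DESeq2 1.42.0, RLE scaling, no filter, cluster sums, a replicate block, members with monocot hits, members with a mean FPKM of at least 1 and leaving out each library were alternatives. DESeq2 without each library, DESeq2 on cluster sums and the HSP20 family by KEGG were added after seeing the data. The fits were also run on simulated data, whose outcome is not given here, and no result above rests on it.

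Members and lists were chosen with earlier results of these data known, so lists carry counts and medians only. The rule for named members took the 12 chaperones and 10 factors of highest mean CPM, members past an adjusted threshold, in each class and direction the 3 of smallest unadjusted p under 0.05, the most abundant member of each subclass and that of each other heat list. Any other member named was chosen after its values were seen.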

Additional observations from a re-analysis of the deposited data

How the results depend on the processing

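The count of members called at adjusted p 0.05 was 0 by edgeR under every alternative and 2 by DESeq2. Small chaperones higher at an unadjusted p under 0.05 numbered 9, 17 by DESeq2, and 1 to 16 when 1 library was left out. Factors higher at that threshold numbered 1, and 0 to 1 with a library left out. The median log2 fold change ran from 1.06 to 1.97 for the small chaperones and from 0.16 to 0.60 for the factors with a library left out. DESeq2 calls among members, 2 with all libraries, ran from 4 to 11 without 1 library, with 7 and 5 when plant alone 2 or 3 was left out and 8 without co-culture 2. Leaving out a plant alone library leaves a lone sample that is assumed to vary like the others. Shares of all unigenes higher at an unadjusted p under 0.05 were taken only for the main edgeR fit (2.75%) and the edgeR cluster sums (3.06%). Such counts under DESeq2, the replicate block and the libraries left out therefore have no share to be read against. The small chaperone median was 1.61 for monocot hits only, 1.60 with no count filter and 1.53 with the HSP20 unigenes known by KEGG alone.

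Replicate numbers are shared by replicates 2 and 3 of both groups, and the labels do not say that they pair samples. The correlation between the groups of the replicate 2 minus replicate 3 difference was 0.0663. With a replicate block, 5 small chaperones and 0 factors were higher at an unadjusted p under 0.05, and the medians were 1.43 and 0.28. The block turned CL11024.Contig2 to -0.97 and CL8443.Contig1 to -1.12.

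Of 500 values of 50 named unigenes under alternatives, 465 kept direction and side of the threshold, 2 became called (by DESeq2) and 33 turned sign in 17 unigenes. The cause was not tested. With DESeq2, Unigene8623 went to 0.0083 and CL15887.Contig6 to 0.021, and with RLE scaling to 0.0079 and 0.021. With cluster sums, CL15887.Contig6 went to 0.052, CL1403.Contig2 to -0.25, CL10431.Contig1 to 0.37, CL6546.Contig1 to 0.53 and CL14188.Contig1 to 0.19. With 1 library left out, the log2 fold changes whose sign turned spanned -0.15 to 0.60 (CL2698.Contig3), -0.16 to 0.17 (Unigene8623), -0.22 to 1.12 (Unigene8871), -0.28 to 0.082 (CL15511.Contig2), -0.30 to 0.29 (Unigene26190), -0.11 to 0.17 (CL15887.Contig6), -0.091 to 0.41 (CL1403.Contig2), -0.23 to 0.60 (Unigene4371), -1.47 to 0.036 (CL5213.Contig2), -0.62 to 0.15 (CL10431.Contig1), -1.03 to 0.45 (Unigene6287), -0.25 to 2.19 (Unigene551), -0.96 to 2.70 (CL8443.Contig1), -1.01 to 0.50 (CL6546.Contig1) and -0.096 to 1.16 (CL1925.Contig7).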

Other observations

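A further 17 unigenes were assigned to the HSP20 family by KEGG while their protein names did not meet the words of the rule, a set added after seeing the data. Of 12 tested, 9 had a log2 fold change above 0, with a median of 1.15, and edgeR and DESeq2 called 0 of them at adjusted p 0.05 (DESeq2 gave 2 no adjusted p), while 3 were higher and 0 lower at an unadjusted edgeR p under 0.05, against 2.75% and 4.45% of all unigenes. The most abundant, CL10294.Contig1, stood at 572.2 and 519.0 FPKM in plant alone and 1737, 2369 and 67.1 FPKM in co-culture 1, 2 and 3. It thus shared with several class I unigenes a low value in co-culture 3 beside high values in co-culture 1 and 2. Unigene16901, named heat shock protein 17.7, stood at 74.7 and 72.0 FPKM against 189.8, 521.5 and 110.6 FPKM, and Unigene6390, named for the alpha crystallin domain, at 184.6 and 176.3 FPKM against 298.5, 497.3 and 550.0 FPKM. In both, every co-culture library lay above the controls. Green algal hits were found for 2 of the 17. Unigene9903 (Monoraphidium neglectum) was listed at 0 in both plant alone libraries and at 1.32, 0.35 and 7.38 FPKM in co-culture. CL14448.Contig1 (Volvox carteri), which shares its cluster with a chloroplast small chaperone contig, stood at 29.9 and 24.1 FPKM in plant alone and 24.7, 146.7 and 36.2 FPKM in co-culture.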
